A study of Drosophila melanogaster with 3 samples.

Results

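RNA of *RasV12; scrib-/-* tumor cells was set against RNA of the cells that surround them in the same eye-antennal discs (EADs), the larval epithelia that give rise to the eye and antenna. The members of this comparison are all 15603 genes of the deposited table, of 15603 in the series, taken without any choice by level or by known role. The tumor library holds the GFP+ cells of the mosaic clones, and the tumor microenvironment (TME) library holds the GFP- cells of those discs. Both come from larvae that carry *y,w,ey-flp* over *y,w* on the X chromosome, *UAS-RasV12* over the pair *Act>y+>Gal4* and *UAS-GFP* on the second, and *Frt82B scrib2* over *Frt82B* with *tubGal80* on the third. A control library, printed beside some values only, holds GFP+ cells of *GMR>GFP* control discs (genotype GMRGFP), which carry neither *RasV12* nor *scrib2*. Each library was made from 50 discs of wandering larvae at day 6 in batch 1, with no other treatment, so that age and batch were shared.

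In this system the eyeless promoter drives the Flp recombinase in the eye-antennal primordium, recombination on the chromosome arm that carries *scrib* gives cells that are homozygous for *scrib2*, and these cells lose the Gal80 repressor, so that they alone express *RasV12* and GFP. Scrib is a scaffold of the basolateral membrane that keeps epithelial cells polarized and restrains their growth. Ras is the switch through which the EGF receptor drives growth and survival, and RasV12 is locked in its active form. Clones with both lesions are known to overgrow and to invade, to signal through Jun N-terminal kinase (JNK) and the Hippo pathway effector Yorkie, and to release factors that act on distant organs. The TME is not a cell type. It can hold heterozygous and wild-type disc cells, blood cells (hemocytes), muscle precursors, glia and trachea attached to the disc, and per the study's methods the same recombinase also makes clones in the optic lobes.

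With 1 library on each side, no value has a replicate check, and no p-value, standard deviation or standard error was computed. Levels are in FPKM, the fragments counted on a gene divided by its transcript length and by the size of the library. The depth, fitted from the steps in which low FPKM values move, came to 1829615 fragments in the tumor library, 11045167 in that of the TME and 1755661 in that of the control. A gene of 2000 nt at 5 FPKM thus rests on about 16.9 tumor fragments and 103 TME fragments, so that low values are coarser in the tumor. Ratios of FPKM carry exact 95% Clopper-Pearson intervals from these fragments, which cover counting error only and say nothing of the spread between preparations. A gene was called higher in the tumor when it was above 5 FPKM there and at least 2 times its TME level, and lower by the mirror rule. In bulk libraries of this kind, fewer cells of a type and less RNA per cell cannot be told apart.

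Genes that the transgenes carry differed between the libraries. *Ras85D*, whose activated copy the clones express, had 327 FPKM in the tumor, against 118 FPKM in the TME (2.77-fold, 95% interval 2.58 to 2.98). *white* (*w*), the eye color gene carried by many transgenes, was at 151 FPKM in the tumor and 54.2 FPKM in the TME. *yellow* (*y*), the body color gene inside the *Act>y+>Gal4* transgene, was at 3.46 FPKM in the tumor, 12.1 FPKM in the TME and 58.8 FPKM in the control, 3.48-fold below the TME in the tumor. *scrib* had 51.0 FPKM in the tumor and 44.6 FPKM in the TME, and the RNA of a mutant allele need not fall.

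Of 7294 genes above 5 FPKM in either library, 476 (6.53%) were higher in the tumor relative to the TME and 636 (8.72%) were lower. Small RNA genes made up 31 of the higher and 88 of the lower genes. Without them, and without genes at 0 in the other library, 441 were higher and 490 were lower. The genes that were lower differed more, though their smaller value comes from the shallower tumor library, where low values are coarser. Of 453 higher genes above 0 in both libraries, 58 reached 5-fold and 16 reached 10-fold, with a median ratio of 2.55. Of 528 lower genes above 0 in both, 220 reached 5-fold and 120 reached 10-fold, with a median ratio of 4.04. The higher genes took 5.47% of the tumor's summed FPKM, against 1.53% of the TME's, and the lower genes took 1.08% of the tumor's, against 5.16% of the TME's. The whole counting interval lay past 2-fold for 181 of the higher and 201 of the lower genes.

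**Figure D1:**
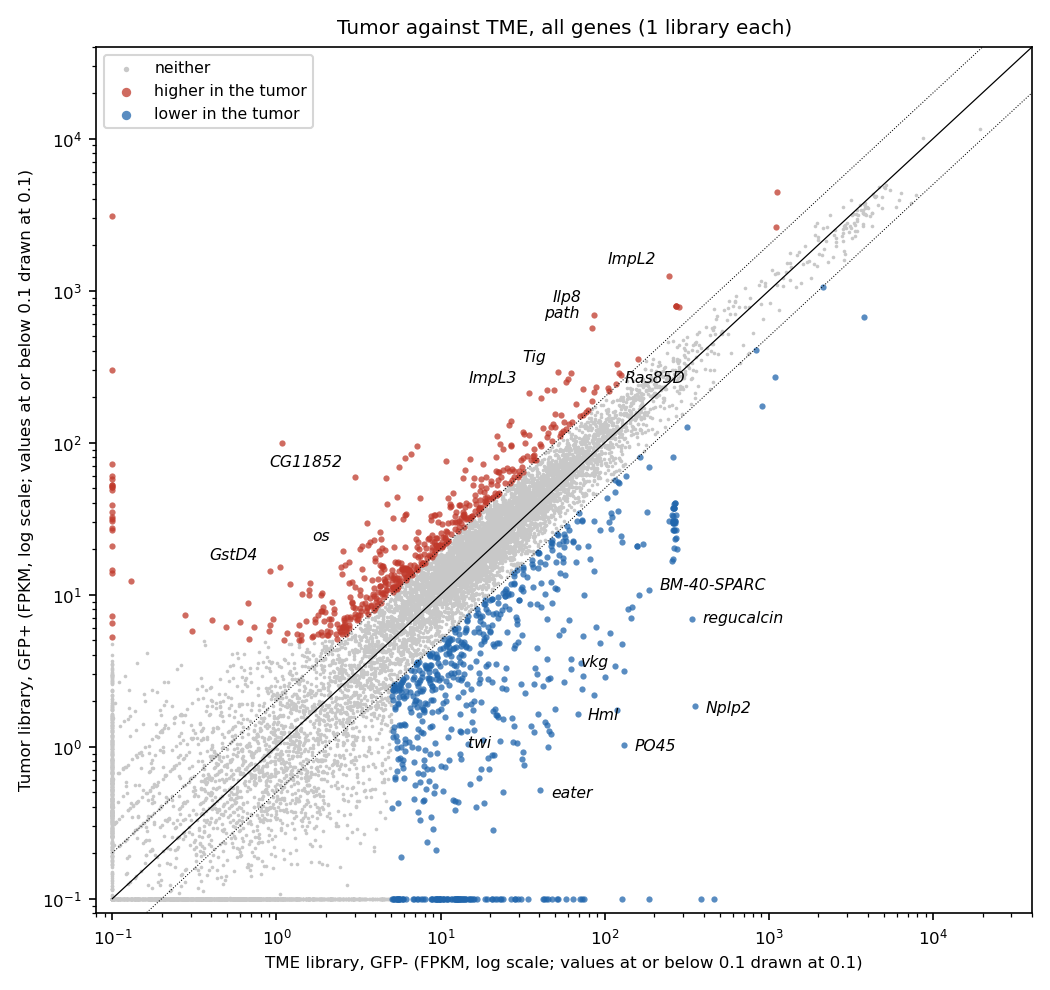
Each point is a gene, with its FPKM in the TME library on the horizontal axis and in the tumor library on the vertical axis, both on log scales. The solid line marks equal levels and the dotted lines 2-fold differences; red points are higher and blue points lower in the tumor, and the blue points reach farther from the line than the red ones.

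The bulk of the genes was shifted slightly toward the tumor. Among 8537 genes with a mean of at least 1 FPKM and above 0 in both libraries, the median tumor over TME ratio was 1.10, a shift of 0.14 on the log2 scale. Scaling by this median moves the calls to 328 higher and 628 lower, so that higher genes make up 34.3% of the calls in place of 46.2%. Ratios below are as deposited. Medians of gene lists are differences in log2 (FPKM + 1), tumor minus TME, less the median of all genes with a mean of at least 1 FPKM, which was 0.11, so that 0 stands for the typical gene. Of 60 lists with at least 5 members in the median, 3 lay at 0.5 or more above the typical gene, 11 lay at 0.5 or more below it, and 46 were closer than that. The lists and their members were chosen with earlier results of these data known, so their ranking is not an independent result.

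**Figure D2:**
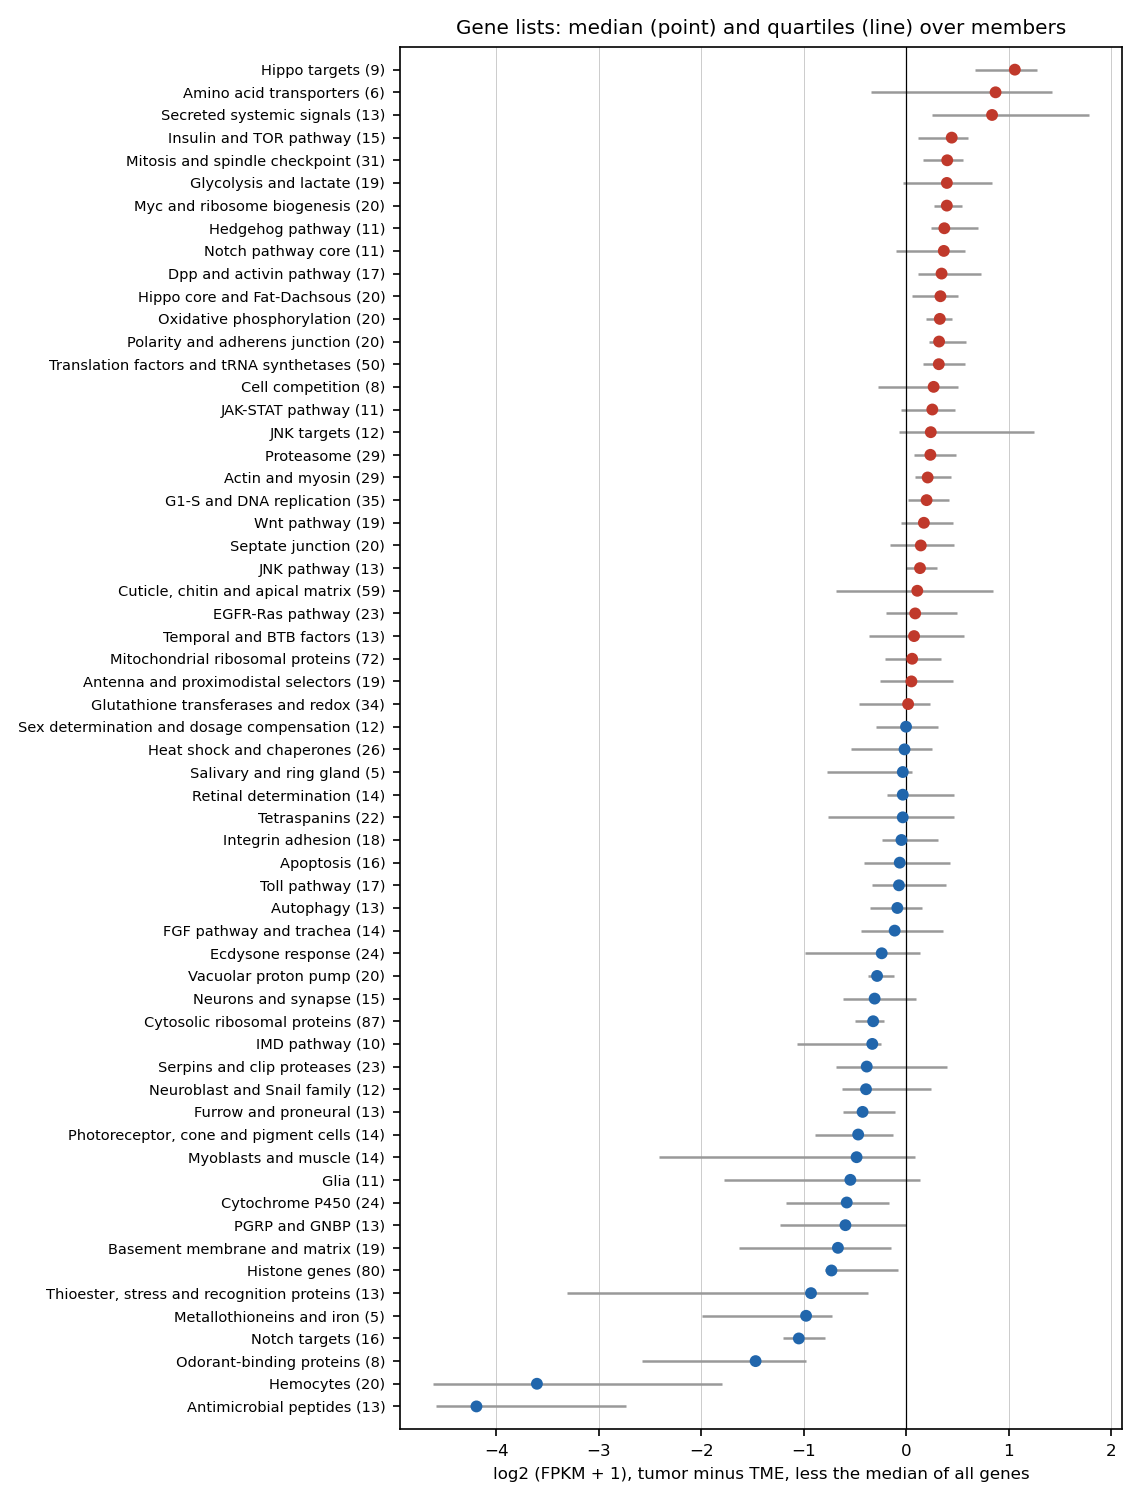
Each row is a gene list with the number of members in its median in parentheses; the point is the median and the line spans the quartiles of the members' log2 (FPKM + 1) differences, tumor minus TME, less the median of all genes. Hippo targets stand at the top with a median of 1.06, and hemocyte genes (-3.60) and antimicrobial peptides (-4.19) at the bottom.

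Of the 25 genes that were higher in the tumor with the largest near bound of the counting interval, 11 belong to any of the lists used here. *Ilp8*, a peptide of the relaxin kind that holds back metamorphosis when discs are damaged, was at 693 FPKM in the tumor, against 86.2 FPKM in the TME and 99.8 FPKM in the control (8.03-fold over the TME, 7.27 to 8.88). *ImpL2*, a secreted protein that binds insulin-like peptides, was at 1246 FPKM in the tumor, 245 FPKM in the TME and 232 FPKM in the control (5.10-fold, 4.79 to 5.42). *path*, an amino acid transporter, was at 566 FPKM in the tumor and 83.8 FPKM in the TME (6.75-fold, 6.37 to 7.16). In all 3 cases the TME and control levels lay close together and the tumor stood apart. *Tiggrin* (*Tig*), an integrin ligand of the matrix, was at 291 FPKM in the tumor and 51.9 FPKM in the TME (5.60-fold, 5.35 to 5.86), and *scarface* (*scaf*), an inactive protease homolog that responds to JNK, at 196 FPKM in the tumor and 41.1 FPKM in the TME.

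Among the same 25 genes, *Sulf1*, an enzyme that removes sulfate groups from heparan sulfate outside the cell, was at 138 FPKM in the tumor and 26.9 FPKM in the TME. *Cyp18a1*, the enzyme that inactivates ecdysone, was at 43.5 FPKM in the tumor and 5.43 FPKM in the TME (8.02-fold, 6.31 to 10.2). *apterous* (*ap*), a LIM homeobox selector gene, was at 26.0 FPKM in the tumor and 4.27 FPKM in the TME, but at 36.7 FPKM in the control, so that here the TME was the library that stood apart. *Eaat2*, a glutamate and aspartate transporter, differed among all 3 libraries. It was at 6.90 FPKM in the tumor, 0.95 FPKM in the TME and 30.3 FPKM in the control. Of the 25 genes with the largest near bound of the interval, 9 are known by number alone. *CG11852*, which the current annotation names *Jhbp7*, was at 59.4 FPKM in the tumor and 3.00 FPKM in the TME (19.8-fold, 13.2 to 31.2), *CG13606* at 79.2 FPKM in the tumor and 6.10 FPKM in the TME, and *CG13722* at 58.4 FPKM in the tumor and 4.66 FPKM in the TME. The noncoding RNA *CR32658* was at 12.2 FPKM in the tumor and 0.13 FPKM in the TME, where it rests on so few fragments that the interval runs from 14.4-fold upward.

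**Figure D3:**
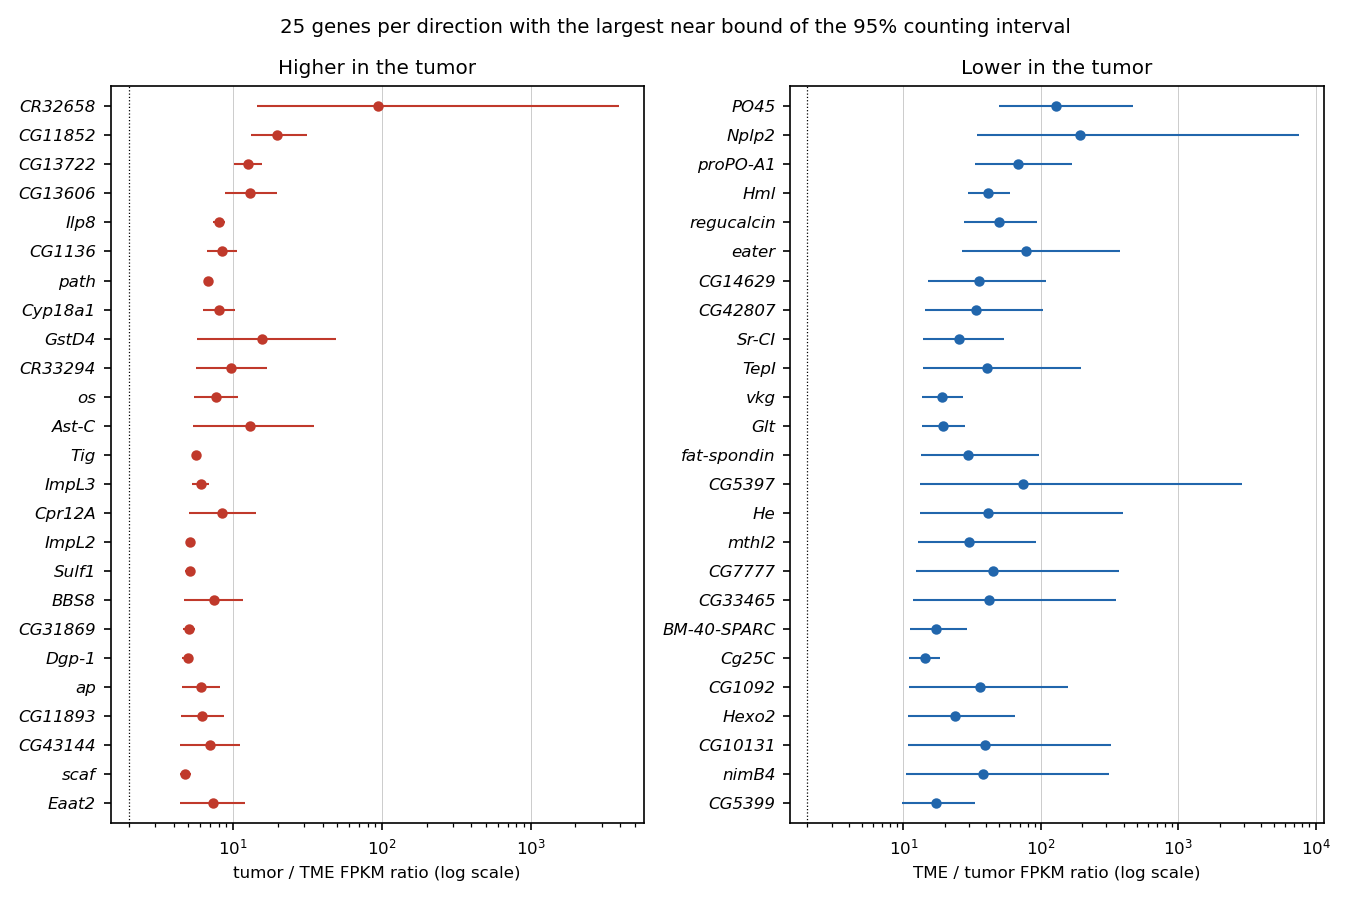
The 25 genes per direction with the largest near bound of the counting interval, small RNA genes left out. Points are FPKM ratios on a log scale, tumor over TME on the left and TME over tumor on the right, lines are 95% counting intervals and the dotted line marks 2-fold. Ratios run to 93.7 on the left (*CR32658*, about 0.98 TME fragments) and to 192 on the right (*Nplp2*, about 1.00 tumor fragments).

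Secreted systemic signals were 1 of the 3 lists with a median of at least 0.5. Of 10 systemic signals above 5 FPKM, 9 were above the TME in the tumor, where 61.7% of all genes were, for a list median of 0.84. None was lower (1 once scaled by the median), and 5 were higher in the tumor. Beside *Ilp8* and *ImpL2* these were *Pvf1*, a ligand of the PDGF- and VEGF-receptor related kinase, at 31.6 FPKM in the tumor and 5.87 FPKM in the TME (5.39-fold, 4.04 to 7.16), *dawdle* (*daw*), an activin-like ligand, at 18.6 FPKM in the tumor and 4.25 FPKM in the TME, and the cytokine *upd2* at 14.8 FPKM in the tumor and 5.92 FPKM in the TME (2.51-fold, 1.78 to 3.54). The founding JAK-STAT cytokine, *outstretched* (*os*, unpaired 1), was at 19.4 FPKM in the tumor, 2.53 FPKM in the TME and 1.46 FPKM in the control (7.64-fold over the TME, 5.41 to 10.7). Genes downstream of the cytokines were close in both libraries. *Socs36E*, a feedback target of the pathway, was at 66.1 FPKM in the tumor and 56.8 FPKM in the TME, and *Stat92E*, its transcription factor, chosen after its values were seen, at 60.7 FPKM in the tumor and 59.8 FPKM in the TME. The receptor-like inhibitor *eye transformer* (*et*) was 14.5-fold lower in the tumor, at 0.74 FPKM against 10.7 FPKM in the TME.

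Among the genes that respond to JNK, 5 of 12 were higher in the tumor and none was lower. *Mmp1*, a protease that degrades matrix, was at 285 FPKM in the tumor and 122 FPKM in the TME (2.34-fold, 2.18 to 2.51). *Ets21C*, an ETS transcription factor, was at 58.4 FPKM in the tumor and 16.1 FPKM in the TME, and *cheerio* (*cher*), the filamin that links actin filaments, at 188 FPKM in the tumor and 83.6 FPKM in the TME. The other 7 genes of the list were within 2-fold, and *Gadd45* was at 150 FPKM in the tumor and 271 FPKM in the TME. None of the 13 components of the kinase cascade was called, though 2 were lower once scaled by the median. *kayak* (*kay*, the fly Fos), the most abundant of them, was at 137 FPKM in the tumor and 118 FPKM in the TME, and *Jra*, the fly Jun, at 97.9 FPKM in the tumor and 116 FPKM in the TME.

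Hippo signaling restrains Yorkie, and genes that Yorkie turns on gave the highest list median, 1.06, with 6 of 9 genes higher and none lower. *four-jointed* (*fj*), a Golgi kinase that acts on the cadherins Fat and Dachsous, was at 112 FPKM in the tumor and 34.7 FPKM in the TME (3.24-fold, 2.95 to 3.55). *expanded* (*ex*), an upstream activator of the pathway, was at 232 FPKM in the tumor and 88.1 FPKM in the TME (2.64-fold, 2.52 to 2.76), and *dally*, a heparan sulfate proteoglycan that carries growth factors, at 214 FPKM in the tumor and 85.9 FPKM in the TME. The control was below the TME for each of these, so that the order was tumor, TME, control. *Diap1* (listed as *th*), the caspase inhibitor that is also a target, did not follow, at 172 FPKM in the tumor and 202 FPKM in the TME. In the pathway itself 4 of 20 genes were higher, all of them upstream components: *kibra*, *ft*, *ex* and *fj*. Of these only *ft* is not also counted among the Yorkie targets above. The cadherin *fat* (*ft*) was at 66.9 FPKM in the tumor and 27.4 FPKM in the TME.

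Several ligands of the pathways that pattern the disc, and a secreted antagonist, were higher in the tumor. The EGFR ligand *spi* was not, at 144 FPKM in the tumor and 152 FPKM in the TME. *wingless* (*wg*), the Wnt ligand, was at 29.5 FPKM in the tumor and 13.2 FPKM in the TME, and was the only one of 17 Wnt genes called, beside 1 lower gene when scaled by the median. *Serrate* (*Ser*), a ligand of Notch, was at 65.5 FPKM in the tumor and 21.7 FPKM in the TME (3.02-fold, 2.74 to 3.32). *short gastrulation* (*sog*), a secreted antagonist of BMP ligands, was at 65.6 FPKM in the tumor, 14.1 FPKM in the TME and 7.57 FPKM in the control (4.64-fold over the TME, 4.13 to 5.2). The FGF ligands *branchless* (*bnl*) and *thisbe* (*ths*) were at 9.58 and 11.2 FPKM in the tumor, against 2.81 and 3.00 FPKM in the TME. The *thisbe* receptor *heartless* (*htl*) and its adaptor *stumps*, both marks of mesoderm, went the other way, at 0.82 and 2.44 FPKM in the tumor and 11.3 and 23.6 FPKM in the TME. In the EGFR-Ras pathway only *sprouty* (*sty*), a feedback inhibitor of receptor kinases, was called beside *Ras85D*, at 109 FPKM in the tumor and 44.4 FPKM in the TME, among 22 genes. The Hedgehog pathway had 2 of 11 genes higher, the coreceptor *boi* (82.9 FPKM in the tumor, 37.1 FPKM in the TME) and the ligand-releasing protein *disp*, whose ratio of 2.02 falls to 1.83 once scaled by the median.

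Notch targets had the lowest median of the signaling lists. Of 15 genes of the Enhancer of split and Bearded families and other targets, 5 were lower in the tumor and none was higher. Of the 15, 1 was above the TME in the tumor, where 61.7% of all genes were, for a list median of -1.05. The difference was widest for *m6*, at 2.77 FPKM in the tumor, 45.3 FPKM in the TME and 274 FPKM in the control, and for *m1*, at 8.79 FPKM in the tumor and 47.4 FPKM in the TME. The repressor gene *HLHm7* was at 127 FPKM in the tumor and 316 FPKM in the TME (2.49-fold lower, 2.15 to 2.90), and the abundant *HLHmbeta* at 389 FPKM in the tumor and 755 FPKM in the TME, a ratio of 0.52 that passes the rule only once scaled by the median, where 9 of the 15 are lower. The core of the pathway, receptor, ligands and processing enzymes, had a median of 0.37, with *Notch* (*N*) at 67.5 FPKM in the tumor and 45.6 FPKM in the TME.

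**Figure D4:**
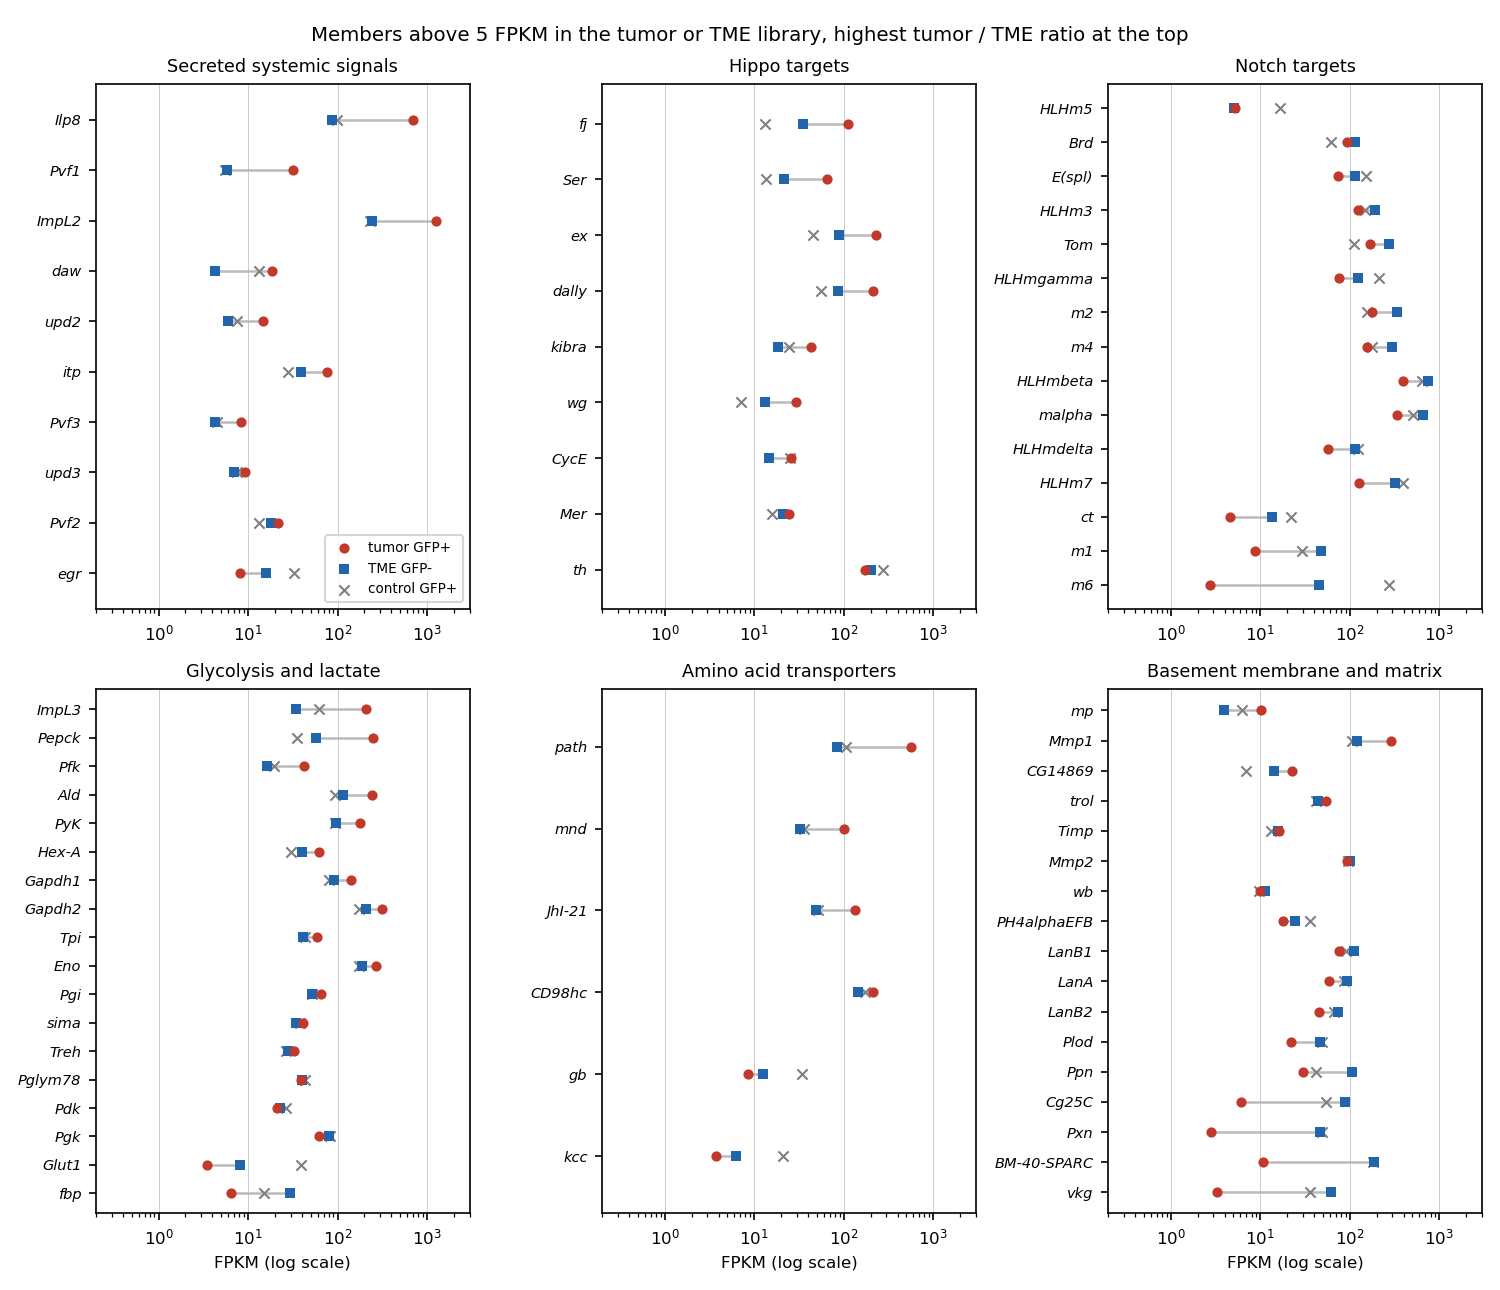
FPKM on a log scale of list members above 5 FPKM in the tumor or TME, sorted by tumor over TME ratio, with the tumor as red circles, the TME as blue squares and the control as gray crosses, 1 library each. Signals, Hippo targets and transporters have red points to the right of blue ones in most rows, Notch targets and the collagen IV genes to the left.

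Of 6 amino acid transporters above 5 FPKM, *path*, *minidiscs* (*mnd*) and *JhI-21* were higher in the tumor, with *mnd*, a leucine transporter, at 99.8 FPKM in the tumor and 32.8 FPKM in the TME (3.04-fold, 2.66 to 3.46). In glycolysis and the steps around it 4 of 18 genes were higher and 2 were lower. *ImpL3*, lactate dehydrogenase, was at 210 FPKM in the tumor, 34.8 FPKM in the TME and 62.9 FPKM in the control (6.05-fold over the TME, 5.30 to 6.90), *Pfk*, the committing step of glycolysis, at 41.9 FPKM in the tumor and 16.2 FPKM in the TME, and *Ald*, aldolase, at 244 FPKM in the tumor and 116 FPKM in the TME, a ratio of 2.10 that becomes 1.90 when scaled by the median. The gluconeogenic enzymes lay on opposite sides: *Pepck* was at 249 FPKM in the tumor and 57.6 FPKM in the TME (4.33-fold, 4.0 to 4.68), while *fbp* was at 6.38 FPKM in the tumor and 29.4 FPKM in the TME. The glucose transporter *Glut1* was lower, at 3.45 FPKM in the tumor and 8.05 FPKM in the TME. Oxidative phosphorylation had 1 of 20 genes called, cytochrome c (*Cyt-c-p*) at 276 FPKM in the tumor and 125 FPKM in the TME, though 19 of 20 were above their TME level, where 61.7% of all genes were.

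In the list of glutathione transferases and redox genes 5 of 31 were higher in the tumor and 3 were lower. The delta class glutathione transferases *GstD3*, *GstD4*, *GstD6* and *GstD2* were higher in the tumor, with *GstD3* at 261 FPKM in the tumor and 59.7 FPKM in the TME (4.37-fold, 3.74 to 5.10) and *GstD4* at 14.4 FPKM in the tumor and 0.91 FPKM in the TME. The epsilon class gene *GstE8* was higher as well, at 19.9 FPKM in the tumor and 7.39 FPKM in the TME, while *GstE2* of that class was lower, at 0.75 FPKM in the tumor and 7.93 FPKM in the TME (10.6-fold lower, 1.84 to 425). *GstD1*, the most abundant of the delta class, was at 1082 FPKM in the tumor and 868 FPKM in the TME. The delta class genes lie in a cluster of close copies, and how reads were divided among them is not known. Of 17 cytochrome P450 genes above 5 FPKM, 6 were lower and only *Cyp18a1* was higher, and the metal-binding *MtnA* was at 8.72 FPKM in the tumor, 34.8 FPKM in the TME and 211 FPKM in the control.

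Genes of growth machinery were mostly above their TME level by less than 2-fold. Of all genes above 5 FPKM, 61.7% were above their TME level (51.5% when scaled by the median) and 6.53% were called higher. All 20 genes of Myc and ribosome biogenesis had more RNA in the tumor, with 2 called, *nclb* and *pit*, whose ratios of 2.08 and 2.15 fall to 1.89 and 1.95 when scaled by the median. Of 49 translation factors and tRNA synthetases, 4 were higher, all of them synthetases, but only 1 gene of the list is higher when scaled by the median, *Aats-val* at 53.1 FPKM in the tumor and 20.3 FPKM in the TME (2.62-fold, 2.29 to 3.00). The only lower gene, *Ef1alpha100E*, an elongation factor copy, was at 1.34 FPKM in the tumor and 8.65 FPKM in the TME, but at 287 FPKM in the control. Cytosolic ribosomal proteins stood opposite to ribosome biogenesis, with a list median of -0.32, none of 84 called (1 lower when scaled by the median) and 8 of 84 above their TME level. In mitosis 29 of 31 genes were above their TME level and only the centromeric histone *cid* was called, at 7.45 FPKM in the tumor and 3.62 FPKM in the TME with an interval that reaches 1.00 and no call after scaling, and among 35 genes of the G1-S transition and replication none was called.

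Cell shape and contact genes were likewise shifted by small amounts, with a few exceptions. Of all genes above 5 FPKM, 61.7% were above their TME level, and 51.5% after scaling by the median. In the list of polarity and adherens junctions all 20 genes were above their TME level and 17 were after scaling by the median, but only *E-cadherin* (*shg*), at 125 FPKM in the tumor and 42.0 FPKM in the TME (2.98-fold, 2.80 to 3.18), and *sidekick* (*sdk*), whose ratio of 2.02 falls to 1.83 when scaled, passed the rule. Of 20 septate junction genes none did. The formin *diaphanous* (*dia*), which builds straight actin filaments, was at 45.4 FPKM in the tumor and 16.1 FPKM in the TME, and the integrin subunit *inflated* (*if*) at 32.0 FPKM in the tumor and 14.4 FPKM in the TME. A different integrin subunit, *alphaPS5*, was at 2.86 FPKM in the tumor and 11.9 FPKM in the TME.

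Genes of cuticle, chitin and the apical matrix were called in both directions, 15 higher (11 when scaled by the median) and 6 lower of 40 above 5 FPKM, with a median of 0.11. Higher were *Cpr12A*, at 29.7 FPKM in the tumor and 3.54 FPKM in the TME (8.38-fold, 5.06 to 14.3), *Cpr64Ac*, *Cpr56F* and the larval cuticle gene *Lcp65Ag1*, which has close copies beside it and was at 97.4 FPKM in the tumor and 23 FPKM in the TME. *Cpr51A* went the other way, at 5.34 FPKM in the tumor and 73.6 FPKM in the TME. The ecdysone-inducible gene *ImpE2* was at 21.4 FPKM in the tumor, 171 FPKM in the TME and 142 FPKM in the control (8.03-fold lower, 6.20 to 10.5), one of 4 lower genes among 19 of the ecdysone response, and *Eip71CD* was at 17.4 FPKM in the tumor and 55.3 FPKM in the TME.

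Both libraries carried the transcription factors that mark the disc. The 8 markers of eye-antennal disc epithelium summed to 507 FPKM in the tumor, 471 FPKM in the TME and 321 FPKM in the control, and 7 of the 8 were within 2-fold between tumor and TME. *eyeless* (*ey*) was at 66.0 FPKM in the tumor and 42.1 FPKM in the TME, *eyes absent* (*eya*) at 42.7 FPKM in the tumor and 46.8 FPKM in the TME, and *sine oculis* (*so*) at 23.6 FPKM in the tumor and 24.4 FPKM in the TME. The exception was *Distal-less* (*Dll*), the selector of distal appendages, at 65.0 FPKM in the tumor, 26.0 FPKM in the TME and 14.8 FPKM in the control (2.49-fold over the TME, 2.13 to 2.90). *spineless* (*ss*), which specifies the distal antenna, was at 14.7 FPKM in the tumor and 5.85 FPKM in the TME, and *drumstick* (*drm*), a zinc finger factor, at 137 FPKM in the tumor and 56.3 FPKM in the TME. *cut* (*ct*), at 4.56 FPKM in the tumor and 13.4 FPKM in the TME, and *bric a brac 2* (*bab2*), at 4.90 FPKM in the tumor and 13.8 FPKM in the TME, were lower, so that genes of the antennal field were found on both sides.

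Of 9 genes of photoreceptor, cone and pigment cells above 5 FPKM, 1 was higher in the tumor and 2 were lower. The lower genes were *ct*, given above, and *sevenless* (*sev*), a receptor of photoreceptor precursors. *sev* was at 3.60 FPKM in the tumor, 7.21 FPKM in the TME and 3.88 FPKM in the control. The higher gene *salr*, a spalt zinc finger factor, was at 9.45 FPKM in the tumor, 3.70 FPKM in the TME and 12.9 FPKM in the control. *glass* (*gl*), a photoreceptor factor, was at 16.1 FPKM in the tumor, 29.6 FPKM in the TME and 11.6 FPKM in the control. Outside that list, the proneural factor *atonal* (*ato*) founds each photoreceptor cluster at the furrow. It was at 11.9 FPKM in the tumor, 28.0 FPKM in the TME and 5.02 FPKM in the control. The 7 neuronal markers summed to 28.3 FPKM in the tumor and 37.2 FPKM in the TME, against 413 FPKM in the control. Only 2 of the 7, *elav* and *nerfin-1*, were above 5 FPKM in the tumor or the TME. Neither of them was called, and the rest lay below the floor of the rule. The neuroblast marker *dpn* was at 32.4 FPKM in the tumor and 38.9 FPKM in the TME, while *wor*, *ase* and *mira* were below 5 FPKM in both.

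Of the 25 lower genes with the largest near bound of the interval, 8 were in the list of hemocyte genes. Of 20 hemocyte genes above 5 FPKM, 16 were lower in the tumor, 1 of them listed at 0, and 1 was higher, with a list median of -3.60. *Hemolectin* (*Hml*), a clotting protein of plasmatocytes, the phagocytic blood cells, was at 1.64 FPKM in the tumor, 68.2 FPKM in the TME and 25.7 FPKM in the control. The phagocytosis receptor *eater* was at 0.52 FPKM in the tumor and 40.5 FPKM in the TME (78.2-fold lower, 26.5 to 377), resting on about 2.98 fragments in the tumor. The prophenol oxidase genes of crystal cells, *PO45* (*PPO2*) and *proPO-A1*, were at 1.02 and 1.74 FPKM in the tumor, against 131 and 119 FPKM in the TME and 103 and 78.0 FPKM in the control. The 8 defining hemocyte markers summed to 33.6 FPKM in the tumor, 404 FPKM in the TME and 394 FPKM in the control. None was at 0, and 21.4 FPKM of the tumor sum came from *croquemort* (*crq*), which was also at 21.4 FPKM in the TME. *Tig*, the one higher gene of the list, went against the others.

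**Figure D5:**
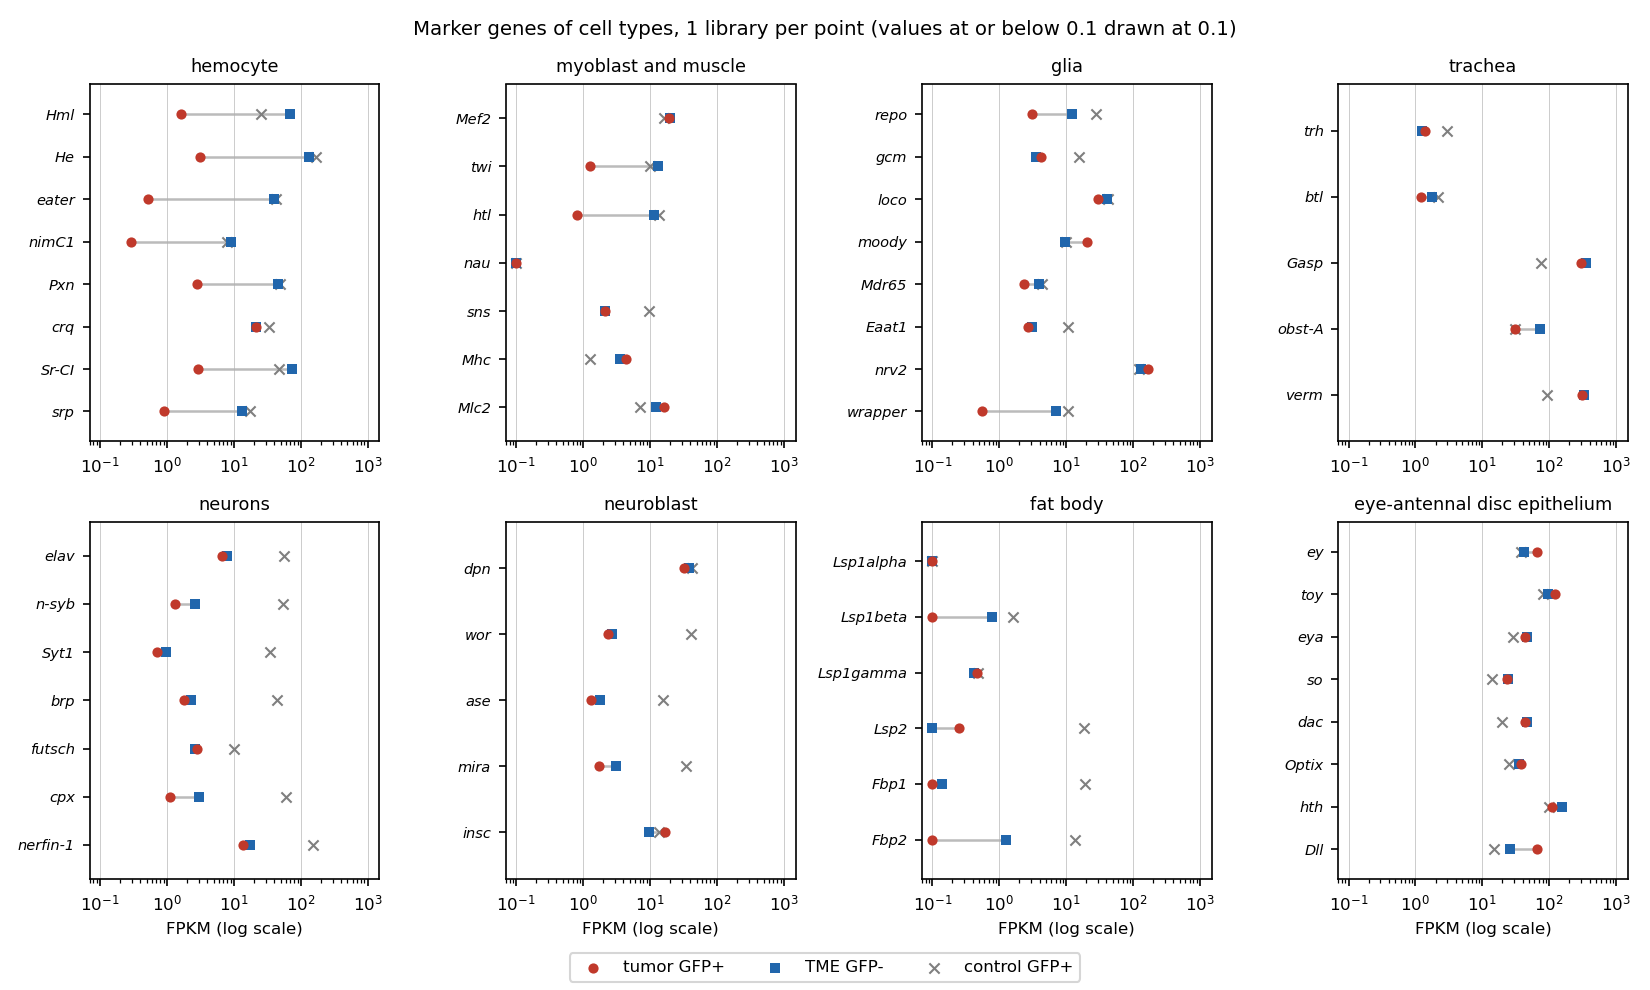
Levels of marker genes in FPKM on a log scale, with the tumor as red circles, the TME as blue squares and the control as gray crosses, 1 library each. Hemocyte markers other than *crq*, and also *twi*, *htl*, *repo* and *wrapper*, lie farther left in the tumor than in the TME, and disc epithelium markers lie close together.

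Some mesodermal and glial genes lay on the same side as the hemocyte genes. The 7 markers of myoblasts and muscle summed to 44.2 FPKM in the tumor and 61.8 FPKM in the TME. Of the 4 above 5 FPKM, 2 were lower. The 8 markers of glia summed to 229 FPKM in the tumor and 213 FPKM in the TME. Most of the glial sum came from *nrv2*, at 166 FPKM in the tumor and 133 FPKM in the TME. *twist* (*twi*), the mesoderm factor of the adult muscle precursors, was at 1.26 FPKM in the tumor and 13.1 FPKM in the TME (10.4-fold lower, 3.97 to 38.1), and *zfh1*, a repressor of muscle differentiation, at 2.24 FPKM in the tumor and 32.6 FPKM in the TME. *Mef2*, a later muscle factor, was at 19.2 FPKM in the tumor and 19.7 FPKM in the TME. In the longer list of glial genes 4 of 8 above 5 FPKM were lower and 1 was higher. *repo*, the glial selector, was at 3.06 FPKM in the tumor, 12.1 FPKM in the TME and 27.5 FPKM in the control, and *wrapper*, a protein of glia that enclose axons, at 0.56 FPKM in the tumor and 7.0 FPKM in the TME, while *moody*, a receptor of the blood-brain barrier, was at 20.6 FPKM in the tumor and 9.69 FPKM in the TME, a ratio of 2.12 that becomes 1.93 when scaled by the median. Tracheal markers summed to 636 FPKM in the tumor and 758 FPKM in the TME. Most of this came from the chitin matrix genes *verm* (309 and 326 FPKM) and *Gasp* (294 and 357 FPKM). The tracheal factor *trh* (1.37 and 1.24 FPKM) and the receptor *btl* (1.21 and 1.79 FPKM) were below 5 FPKM in both. The 6 fat body markers were all below 5 FPKM on both sides, with sums of 0.72 FPKM in the tumor and 2.59 FPKM in the TME, and 4 of the 6 were at 0 in the tumor.

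Genes of the basement membrane divided by component. The collagen IV chains *vkg* and *Cg25C* were at 3.24 and 6.14 FPKM in the tumor, against 61.8 and 87.9 FPKM in the TME, ratios of 19.1 (13.7 to 26.9) and 14.3 (11.1 to 18.6) in favor of the TME. *BM-40-SPARC*, which binds collagen IV, was at 10.8 FPKM in the tumor and 187 FPKM in the TME, and *Peroxidasin* (*Pxn*), which crosslinks it, at 2.84 FPKM in the tumor and 46.0 FPKM in the TME. No laminin chain was called. On the tumor side stood *Mmp1* and the collagen XV and XVIII homolog *mp* (multiplexin), at 10.1 FPKM in the tumor and 3.89 FPKM in the TME. Hemocytes are a known source of collagen IV and SPARC in larvae. The hemocyte marker sum, which includes *Pxn* itself, was likewise lower in the tumor, at 33.6 FPKM against 404 FPKM in the TME. The part of hemocytes in these genes was not tested.

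Antimicrobial peptides and several genes that control them were lower in the tumor. All 11 genes of the antimicrobial peptide list above 5 FPKM were lower, 6 of them listed at 0 in the tumor, with a list median of -4.19. Outside the list *dro5*, of the drosomycin family, was at 5.23 FPKM in the tumor and listed at 0 in the TME, resting on about 2.00 fragments. *CecB* was at 2.18 FPKM in the tumor, 85.8 FPKM in the TME and 20.4 FPKM in the control, and *CecA1* and *CecA2* were listed at 0 in the tumor and at 47.3 and 42.4 FPKM in the TME. *Drs*, the antifungal peptide drosomycin, was at 7.07 FPKM in the tumor and 145 FPKM in the TME. These transcripts are short and some are close copies, so that most have few fragments in the tumor and several have no interval. In the IMD pathway, which controls many of these peptides, 3 of 9 genes were lower and none was higher: the NF-kB factor *Relish* (*Rel*) was at 69.1 FPKM in the tumor and 186 FPKM in the TME (2.69-fold lower, 2.41 to 3.02), and its feedback inhibitor *pirk* at 1.45 FPKM in the tumor and 15.5 FPKM in the TME. Of 8 PGRP and GNBP recognition genes above 5 FPKM, 1 was higher and 3 were lower. The higher gene, *PGRP-SA*, was at 56.2 FPKM in the tumor and 20.2 FPKM in the TME (2.78-fold, 2.01 to 3.81). Of 15 Toll pathway genes above 5 FPKM, 2 were higher (1 when scaled by the median) and 1 was lower. Within the Toll pathway the ligands differed most. *spz5* was at 6.79 FPKM in the tumor and 3.11 FPKM in the TME. *spz3* was at 59.5 FPKM in the tumor and 19.0 FPKM in the TME, while *spz*, the ligand of immune Toll signaling, was at 2.60 FPKM in the tumor and 30.9 FPKM in the TME, and the NF-kB factor *dorsal* (*dl*) was at 65.5 FPKM in the tumor and 63.4 FPKM in the TME. The hemocyte marker sum was also lower in the tumor, at 33.6 FPKM against 404 FPKM in the TME and 394 FPKM in the control. The peptide list summed to 22.4 FPKM in the tumor, 535 FPKM in the TME and 254 FPKM in the control. The part of hemocytes in these values was not tested.

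Of 12 thioester, stress and recognition proteins above 5 FPKM, 7 were lower in the tumor and 1 was higher. *TepI*, a thioester protein that binds microbes, was at 0.40 FPKM in the tumor and 16.3 FPKM in the TME, whereas its relative *TepIII* was at 30.1 FPKM in the tumor and 9.58 FPKM in the TME (3.15-fold, 2.70 to 3.66). The chitinase-like imaginal disc growth factors *Idgf1*, *Idgf3* and *Idgf2* were at 0.845, 1.10 and 2.56 FPKM in the tumor, against 19.4, 18.2 and 14.4 FPKM in the TME, while *Idgf4* was at 133 FPKM in the tumor and 160 FPKM in the TME. Serpins and clip proteases went both ways, with 3 of 19 higher and 4 lower. The serpin *Spn88Eb* was at 0.42 FPKM in the tumor and 18.4 FPKM in the TME. The serpin *necrotic* (*nec*), which restrains Toll activation, was at 6.31 FPKM in the tumor and 0.91 FPKM in the TME (6.92-fold, 3.26 to 14.9). *Nplp2*, a neuropeptide-like precursor, and *regucalcin*, a calcium-binding protein, gave some of the widest ratios of all, at 1.84 and 6.89 FPKM in the tumor, against 353 and 341 FPKM in the TME and 126 and 467 FPKM in the control. The tumor values rest on about 1.00 fragments for *Nplp2* (192-fold lower, 34.3 to 7578) and 11.7 for *regucalcin* (49.4-fold lower, 27.5 to 93.3).

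Gene families set by the stem of their symbols hold genes of the lists above, so they group the same values in another way. Among families with at least 5 members, the Nim scavenger receptor genes had the lowest median after the *Ilp* family, at -3.27, with 5 of 5 genes above 5 FPKM lower and a summed level of 2.10 FPKM in the tumor and 86.2 FPKM in the TME. The *Ilp* family itself was split, with *Ilp8* higher and 3 others lower, among them *Ilp3*, listed at 0 in the tumor and the control and at 19.2 FPKM in the TME. The *Cpr* family had a median of 0.72 with 7 higher and 2 lower of 12, and the *Lcp* family 0.68 with 3 of 4 higher. Odorant-binding protein genes, some of which are made outside the olfactory organs, had 3 of 4 lower, with *Obp44a* at 22.3 FPKM in the tumor, 126 FPKM in the TME and 656 FPKM in the control. No chromosome arm stood apart: medians ran between -0.08 and 0.03.

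RNA that lacks long poly(A) tails also differed. All 48 genes of 5S rRNA above 5 FPKM were lower in the tumor, with a summed level of 925 FPKM in the tumor, 8439 FPKM in the TME and 12421 FPKM in the control. Small nucleolar RNA genes went both ways, 23 higher and 33 lower of 61, and 45 of these were listed at 0 in the other library. Of the 23 higher genes listed at 0 in the TME, 19 were small RNA genes, and of the 108 lower genes listed at 0 in the tumor, 50 were. The labels describe poly(A) RNA, and such short transcripts are poorly captured, so that these values were set apart from the rankings. The table gives the microRNA locus *let-7* 0 FPKM in both the tumor and the control libraries, and 383 FPKM in the TME.

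The control library places the called genes relative to cells without *RasV12* and *scrib2*, although its GFP+ cells lie behind the furrow and are not matched by cell type. Of the 453 genes that were higher in the tumor, the control was at or below the TME for 225, between the libraries for 194, and at or above the tumor for 34. Of the 528 genes that were lower in the tumor, the control was at or above the TME for 270, between for 231, and at or below the tumor for 27.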

How the data were processed

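Third-instar eye-antennal discs were profiled as 3 libraries, 1 of GFP+ tumor cells, 1 of GFP- TME cells and 1 of control cells. The series record describes cells sorted by FACS and its sample labels describe Trizol extraction, whereas the study's methods describe manual isolation of discs and a column kit, so the step that separated the cells cannot be settled here. Per the methods, the authors used TruSeq kits and a MiSeq sequencer, ran the Tuxedo suite against *Drosophila* genome release 5.2 and deposited 1 table of FPKM, the fragments on a gene per kilobase of its transcript and per library size. For the suite's version and the annotation, the sources used here give nothing.

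Deposited FPKM values were used without rescaling. Values under 0.001 FPKM (32 tumor, 34 TME and 27 control values) were set to 0. A gene was called where the higher library exceeded 5 FPKM and the ratio was at least 2. Where the lower library listed a gene at 0 it was counted separately, with no fold, because a listed 0 can be a failed estimate. In all, 4086 genes were at 0 in both the tumor and the TME. Of the table's identifiers and symbols, 98.96% matched the RefSeq gene table or the annotation of a later genome build, which gave names, biotypes and transcript lengths but no coordinates. Reads per gene were not given, so fragments were estimated from FPKM, the shortest annotated transcript and a depth fitted over 6686 single-transcript genes of 400 to 4000 nt; in that fit 82.7% of the genes of the tumor, 78.6% of the TME and 81.3% of the control came within 0.1 of a whole number. Ratio intervals are exact 95% Clopper-Pearson intervals on these fragments, only for genes whose shortest transcript exceeds 400 nt, and cover counting error only. The self-test on simulated data tested the same code. With 1 library a side no p-value was computed.

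List medians are median log2(FPKM + 1) differences over members with a mean of at least 1 FPKM, less the median of all genes. The members and the 61 lists were chosen with earlier results of these data known. Genes named are the 25 called genes in each direction with the largest near bound of the counting interval, small RNA genes left out, the genes of the transgenes, cell type markers, up to 6 called and 3 most abundant genes of each list, and the 10 highest genes listed at 0 on the other side; any other is said to be chosen after its values were seen. Families are symbol stems with at least 5 members. Alternatives changed the ratio, the floor, the pseudocount, the scaling, the transcript length and the gene filter. The work used Python 3.11.15 with pandas 2.3.3, scipy 1.17.1, numpy 2.4.6 and, for plots, matplotlib 3.10.9.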

Additional observations from a re-analysis of the deposited data

How the results depend on the processing

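The counts of 453 genes higher in the tumor and 528 lower, both relative to the TME, moved most with the thresholds. A ratio of at least 1.5 gave 1409 higher and 909 lower, a ratio of at least 3 gave 150 and 338, no floor gave 994 and 1085, a floor of 1 FPKM gave 751 and 949, and a whole counting interval past 2-fold gave 181 and 201. The other 8 settings stayed within 1.5 times of both counts, from 328 to 476 higher and from 362 to 636 lower; scaling by the median ratio gave 328 higher and 628 lower. Under that scaling 17 of 360 named ratios lost the call and 8 gained it, and with the longest transcript 2 of 354 intervals moved. Of 61 list medians, 2 moved with 0.1 added to FPKM, 2 with 5 added and 8 without the filter on the mean, 1 of 59 moved with a mean of at least 5 FPKM, and no list median with a call changed sign. At 5 FPKM a transcript of 2000 nt stands for about 16.9 fragments in the tumor and 103 in the TME, so the tumor library limits low genes. No paired analysis was possible because each group holds 1 library, and for the same reason no library could be left out.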

Other observations

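The following 8 genes outside the comparisons above were picked after their values were seen, and say nothing of the families they belong to. *CG3523*, a fatty acid synthase, was at 224 FPKM in the tumor, 74.1 FPKM in the TME and 89.6 FPKM in the control. Acetyl-CoA carboxylase (*ACC*) was at 47.5 FPKM in the tumor, 18.3 FPKM in the TME and 21 FPKM in the control. The acetyl-CoA synthetase *AcCoAS* was at 96.3 FPKM in the tumor, 26.8 FPKM in the TME and 22.7 FPKM in the control.

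*Gp150*, a leucine-rich repeat protein of the cell surface, was at 778 FPKM in the tumor, 285 FPKM in the TME and 155 FPKM in the control, *tartan* (*trn*) at 116, 45.0 and 63.4 FPKM in the same order, and *capricious* (*caps*) at 40.1, 14.2 and 22.1 FPKM. The zinc transporter *foi* was at 288 FPKM in the tumor, 61.9 FPKM in the TME and 39.5 FPKM in the control. The NADPH oxidase *Nox*, which makes superoxide, was at 19.7 FPKM in the tumor, 4.57 FPKM in the TME and 3.64 FPKM in the control.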
